A study of Mus musculus with 9 samples.

Results

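Protein arginine methyltransferases are the enzymes that add methyl groups to arginine side chains of histones, splicing factors and other RNA-binding proteins. Members were taken by gene symbol: Prmt1, Prmt2, Prmt3, Prmt5, Prmt6, Prmt7, Prmt8, Prmt9 and Carm1 (an older name is Prmt4), 9 genes in all, of which 8 were among the 19505 genes measured. Prmt2 was not analysed here. Where a gene has several features on the array, the feature chosen by the highest mean over all arrays stands for it, and each of the 8 members had 1 feature. The family itself was selected on results of these same 9 arrays, so the p-values of its members, taken from a fit of all genes, describe these samples and are not independent evidence.

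The cells were GFP-labelled 3LL cells, the mouse Lewis lung carcinoma (LLC) line, and the strain given is C57/BL6. RNA was measured on 9 one-colour arrays in 3 groups of 3: cells kept in culture dishes for 7 days, GFP-positive cells isolated 7 days after subcutaneous transplantation, and GFP-positive cells isolated 7 days after intrapulmonary transplantation. All groups carry the GFP label and none of the labels names another allele or agent, while the series text calls the lung group's organs BLM lungs without spelling that out. All 3 groups derive from 1 cell line. The labels do not state whether replicates were separate mice or dishes, and the spread behind each p-value is that among these arrays and may be technical only.

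As background, the family falls into classes by product. Type I enzymes (Prmt1, Prmt3, Prmt6, Prmt8 and Carm1) place both methyl groups on the same nitrogen of arginine and give asymmetric dimethylarginine. Type II enzymes (Prmt5 and Prmt9) give symmetric dimethylarginine, and Prmt7, the type III enzyme, makes only monomethylarginine. All take the methyl group from S-adenosylmethionine. Prmt1 makes most of the asymmetric mark in cells, Prmt5 with its partner Wdr77 methylates the Sm proteins of the spliceosome, and Carm1 is a coactivator of nuclear receptors.

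Signals are log2 values as deposited, and differences are log2 fold changes, first group minus second. A gene was read against the 90th percentile of the negative control features on each array, which lay between 7.20 and 7.73. Prmt1, Prmt5, Prmt7 and Carm1 stood above it on all 3 arrays of at least 1 group. Prmt3, Prmt6, Prmt8 and Prmt9 stood below it on all 9 arrays, so their values are not well above background anywhere. Means are given ± SD with n = 3, "rose" and "fell" are used only at an adjusted p under 0.05 (limma, adjusted over all genes), and intervals are 95% intervals of the difference. The deposited values could not be traced to a scaling method: shifting each array to 1 common upper quartile moved the median difference of all genes from -0.07 to -0.38 for lung against subcutaneous, from -0.07 to -0.41 for lung against dish and from -0.01 to -0.05 for subcutaneous against dish.

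RefSeq promoter entries (GRCm38.p6) matched 8 of the 9 members, Prmt2 among them, and Carm1 had none. The 250 bases before the start site are shown for Prmt1, Prmt5 and Prmt7, because these are the members that were lower under the skin than in the dish. Capitals mark matches, on either strand, to the E-box CACGTG, the GC box GGGCGG and the CCAAT box CCAAT. The windows are chr7:44986421-44986670 on the minus strand for Prmt1, chr14:54517471-54517720 on the minus strand for Prmt5 and chr8:106210804-106211053 on the plus strand for Prmt7.
Prmt1: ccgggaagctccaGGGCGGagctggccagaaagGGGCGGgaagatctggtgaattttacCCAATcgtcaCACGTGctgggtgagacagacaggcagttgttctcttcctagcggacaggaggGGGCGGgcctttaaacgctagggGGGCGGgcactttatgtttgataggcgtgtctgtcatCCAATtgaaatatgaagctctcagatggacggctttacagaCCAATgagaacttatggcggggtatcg
Prmt5: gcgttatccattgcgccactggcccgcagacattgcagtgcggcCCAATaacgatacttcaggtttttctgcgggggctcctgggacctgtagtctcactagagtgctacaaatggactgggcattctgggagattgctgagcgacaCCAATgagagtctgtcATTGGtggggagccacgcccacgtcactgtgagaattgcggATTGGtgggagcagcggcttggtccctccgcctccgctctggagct
Prmt7: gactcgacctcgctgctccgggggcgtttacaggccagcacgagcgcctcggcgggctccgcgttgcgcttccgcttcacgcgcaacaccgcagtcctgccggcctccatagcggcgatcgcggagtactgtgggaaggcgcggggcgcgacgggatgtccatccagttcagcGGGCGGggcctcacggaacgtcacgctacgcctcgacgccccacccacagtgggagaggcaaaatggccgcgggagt

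The letters differ between the 3 windows. The Prmt1 window holds 1 E-box match, the motif read by Myc and related factors, 181 bases before the start, with 4 GC box and 3 CCAAT box matches. The Prmt5 window holds 4 CCAAT box matches and 0 of the other motifs. The Prmt7 window holds 1 GC box match, 77 bases before the start, and has a GC content of 70.0%, against 54.8% for Prmt1, 58.0% for Prmt5 and a median of 52.4% over all 32851 windows of the table. An E-box is found in 6.02% of those windows, a GC box in 32.7% and a CCAAT box in 33.8%. Among the members below background, Prmt3 has an E-box match 13 bases before its start. Prmt9 has the 1 match to the cyclic AMP response element TGACGTCA (in 1.55% of all windows) among the 8 members with a promoter entry. These are matches of letters in a short window.

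The first question was how arginine methyltransferase RNA differed between tumour cells under the skin and the same line in the dish. Prmt7 was 17.7-fold lower in the subcutaneous samples, Prmt1 3.06-fold lower and Prmt5 2.02-fold lower, while Carm1 did not pass. These 3 of 8 members fell and 0 rose, where 6.47% of all genes were called lower, 6.41% higher and 12.9% either way. The groups did not overlap for 3 of 8 members, against 29.3% of all genes. Among genes above background on all arrays of a group, 31.7% were called either way. Of the members, only Prmt1, Prmt5, Prmt7 and Carm1 belong to that set, here and in the other comparisons. The median difference of the 8 members was -0.78, against -0.01 over all genes.

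**Figure D1:**
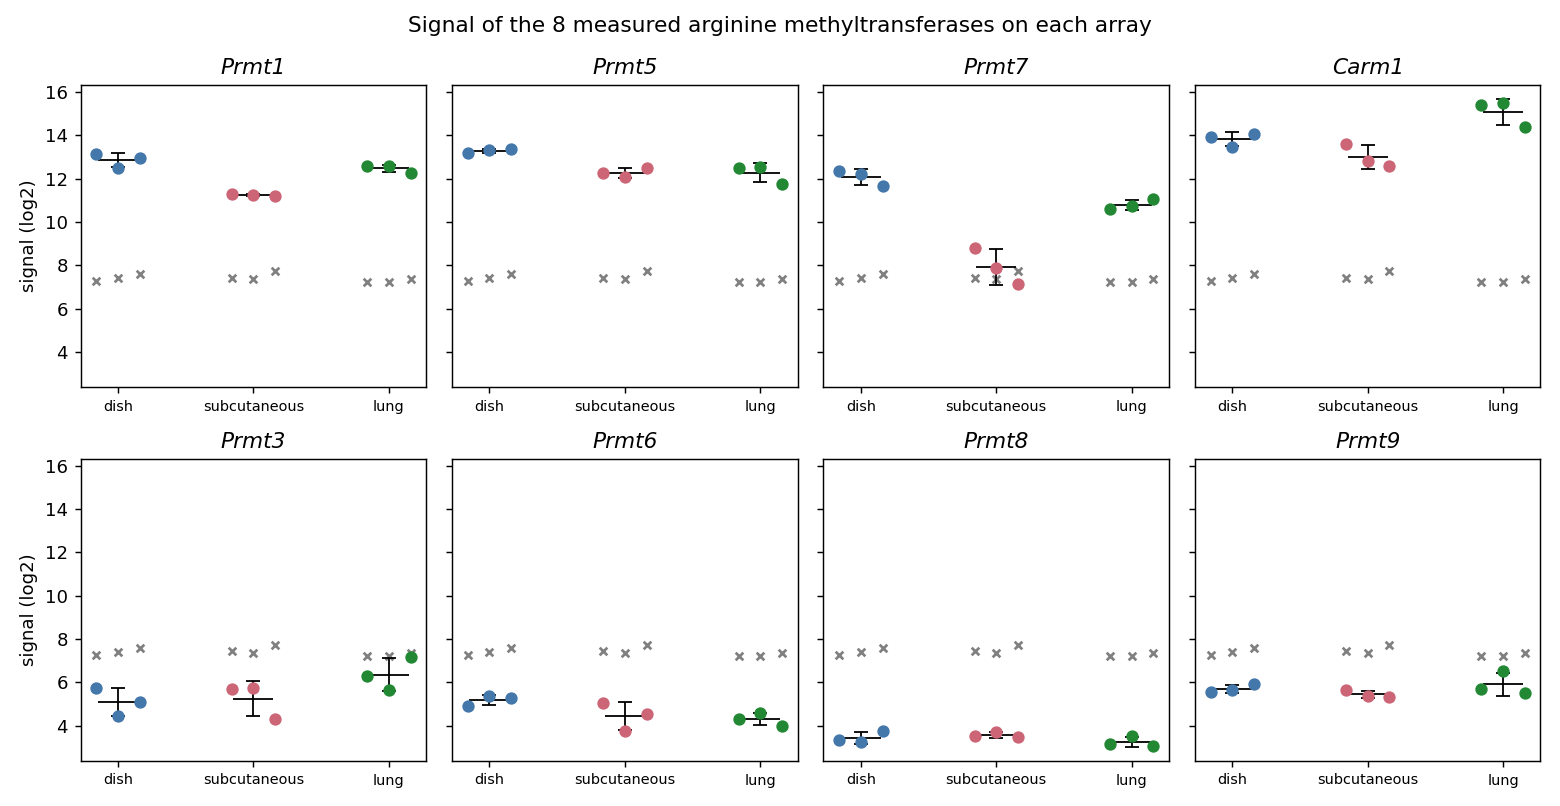
Log2 signal of each measured member (vertical axis) on each of the 9 arrays, by growth site (dots), with the group mean and SD (black) and the 90th percentile of the negative controls on the same array (grey crosses). Prmt7 ranges from 7.14 under the skin to 12.36 in the dish, and Prmt3, Prmt6, Prmt8 and Prmt9 lie below the crosses on all 9 arrays.

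Prmt7, which monomethylates arginine, had signals of 12.36, 12.22 and 11.64 in the dish samples, 8.78, 7.86 and 7.14 in the subcutaneous samples and 10.60, 10.74 and 11.06 in the lung samples. The 3 groups did not overlap, with the dish highest and the subcutaneous samples lowest. Subcutaneous replicate 3 was below the negative control percentile of its array, and the other two were above theirs. The difference between subcutaneous (7.93 ± 0.82) and dish samples (12.07 ± 0.38) was -4.14 with a standard error of 0.36 (adjusted p = 1.64e-05), larger in size than that of 99.9% of all genes. Leaving out any single array gave -4.57 to -3.75, with adjusted p at most 0.000275.

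Prmt1, the main type I enzyme, was at 13.12, 12.49 and 12.98 in the dish, at 11.29, 11.25 and 11.19 under the skin and at 12.57, 12.58 and 12.28 in the lung. The subcutaneous arrays were close together and lay below all others, whereas dish and lung arrays overlapped. The difference between subcutaneous (11.24 ± 0.05) and dish samples (12.86 ± 0.33) was -1.62 with a standard error of 0.24 (adjusted p = 0.000681). This call was kept under each of the 20 alternative settings tried, as was that of Prmt7.

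Prmt5, the main type II enzyme, was at 13.19, 13.30 and 13.36 in the dish, at 12.24, 12.06 and 12.51 under the skin and at 12.51, 12.53 and 11.77 in the lung. Dish arrays were higher than all 6 arrays of transplanted cells, and the other groups overlapped. The difference between subcutaneous and dish samples was -1.01 with a standard error of 0.26 (adjusted p = 0.0208). It lost its call without dish replicate 2 or 3 or subcutaneous replicate 1 or 2 (adjusted p = 0.0523 to 0.0751) and with the RNA integrity number (RIN) as a covariate (0.0859), at differences of -0.91 to -1.06. RIN was 8.40 to 8.60 for dish and 7.50 to 8.60 for subcutaneous samples.

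Carm1, the coactivator, was at 13.92, 13.47 and 14.08 in the dish, at 13.61, 12.80 and 12.58 under the skin and at 15.40, 15.48 and 14.40 in the lung. Lung arrays lay above all others, and dish and subcutaneous arrays overlapped. The difference between subcutaneous and dish samples was -0.83 (interval -1.57 to -0.08, adjusted p = 0.15).

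Technical and cell type measures moved with the groups. Spiked bacterial hybridization controls averaged 12.01 ± 0.15 in the dish group, 12.83 ± 0.11 in the subcutaneous group and 11.35 ± 0.35 in the lung group. Of 4 measured fibroblast markers, 3 stood above background on each subcutaneous array (Lum, Dcn and Dpt), 0 to 1 on dish arrays and 1 to 2 on lung arrays. Their summed linear signal was 258 to 327 in the dish, 90827 to 155423 under the skin and 1688 to 15974 in the lung, and Col1a1 was below background throughout. All 6 measured leukocyte and 5 endothelial markers were below background on all 9 arrays. The part of these measures in the lower Prmt1, Prmt5 and Prmt7 signals was not tested, and in such samples fewer cells of a type and less RNA per cell cannot be told apart.

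The lung group was then set against the subcutaneous group. These groups differ in the site of transplantation, and the series text uses the term BLM lungs for the lung group's organs. In comparisons with the lung group, site and what BLM stands for cannot be told apart. Prmt7 was 7.32-fold higher in the lung, Carm1 4.27-fold and Prmt1 2.35-fold, and the group means of Prmt5 were both 12.27. Thus 3 of 8 members rose and 0 fell, where 9.21% of all genes were called higher, 5.79% lower and 15.0% either way, and 32.8% either way among genes above background on all arrays of a group. The groups did not overlap for 3 of 8 members, against 32.5% of all genes. The median difference of the 8 members was 0.79, against -0.07 over all genes. Over all genes 1797 were higher and 1130 lower. The split was 1405 to 1248 after quantile normalization and 1124 to 2936 after upper quartile scaling.

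Prmt7 differed by 2.87 with a standard error of 0.36 (adjusted p = 0.000386). Its call was kept under each of the 20 alternatives (2.48 to 3.30 with 1 array left out). Carm1 differed by 2.09 (15.09 ± 0.60 against 13.00 ± 0.54) with a standard error of 0.35 (adjusted p = 0.00181). Prmt1 differed by 1.23 (12.48 ± 0.17 against 11.24 ± 0.05) with a standard error of 0.24 (adjusted p = 0.00457). For Prmt5 the difference was 0.00 with an interval of -0.56 to 0.57 (adjusted p = 0.997), which does not show that the levels were equal.

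The calls of Carm1 and Prmt1 were kept when any 1 array was left out but not with the mean of a list of long mRNAs as a covariate (1.43, adjusted p = 0.122, and 0.96, adjusted p = 0.166). That mean was 7.54 ± 0.16 for dish, 7.74 ± 0.21 for subcutaneous and 8.85 ± 0.80 for lung samples, with 9.19 and 9.41 on lung replicates 1 and 2 and 7.94 on lung replicate 3. Of the members above background, Carm1, Prmt1 and Prmt5 were also lowest within the lung group on replicate 3. Prmt7 went the other way and was highest on that replicate (11.06). Some alveolar type II markers stood out in the lung as well. Of 6, 3 to 4 were above background there and 0 to 1 elsewhere. Their summed linear signal was 11972 to 89512 against 217 to 585. Sftpc and Sftpa1 were above background on all 3 lung arrays and Sftpb on 1. Abca3 was above it on arrays of all groups, with means of 7.91 in the lung and 8.44 under the skin. Lamp3 and Sftpd were below it on all 9 arrays. Of 4 airway secretory markers, 0 to 2 were above background on lung arrays and 0 on the others. The part of these lung epithelial signals in the member differences was not tested.

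**Figure D2:**
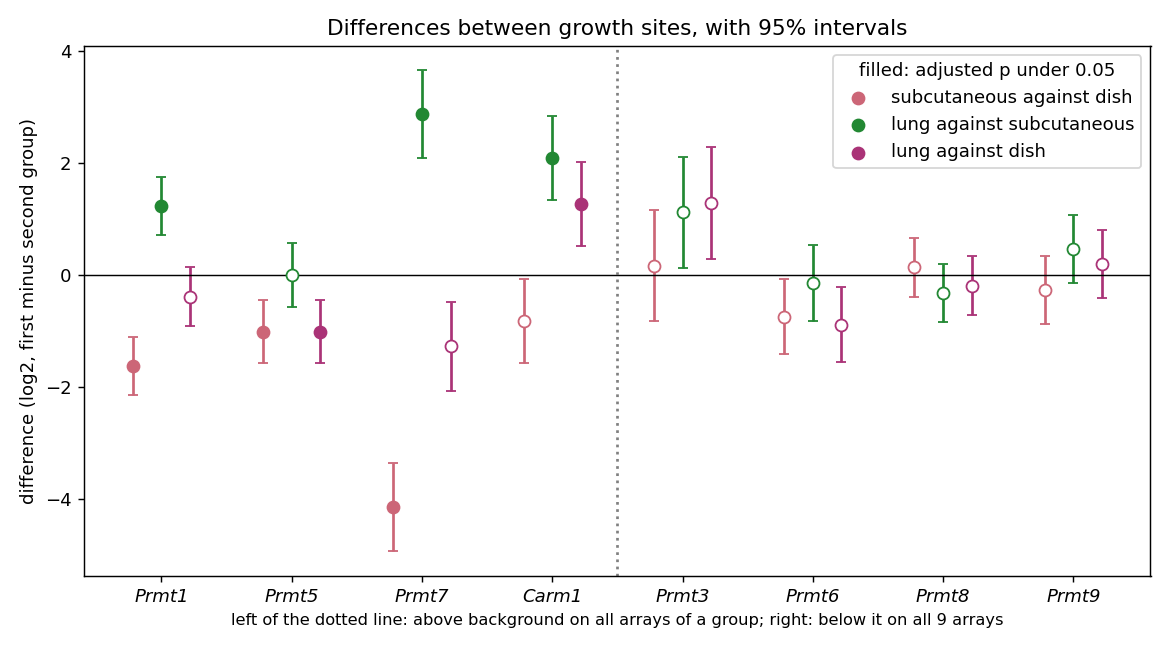
Log2 difference (vertical axis) of the 8 measured members in the 3 comparisons, with 95% intervals; filled points have an adjusted p under 0.05. Prmt7 spans -4.14 for subcutaneous against dish to 2.87 for lung against subcutaneous, and the filled points are those of Prmt1, Prmt5, Prmt7 and Carm1.

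Against the dish, cells from the lung showed Carm1 2.41-fold higher and Prmt5 2.02-fold lower. Of the 8 members, 1 rose and 1 fell, where 4.81% of all genes were called higher, 1.97% lower and 6.78% either way, and 15.6% either way among genes above background on all arrays of a group. The groups did not overlap for 4 of 8 members, against 28.4% of all genes. The 4 members were Prmt5, Prmt7, Carm1 and Prmt6, and Prmt6 was below background on all 9 arrays. The median difference of the 8 members was -0.29, against -0.07 over all genes. Over all genes 938 were higher and 384 lower. The split was 662 to 553 after quantile normalization and 565 to 1787 after upper quartile scaling.

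Carm1 differed by 1.27 with a standard error of 0.35 (adjusted p = 0.0448) and Prmt5 by -1.01 with a standard error of 0.26 (adjusted p = 0.0355). Both calls were close to the threshold. Carm1 lost its call without any dish array, subcutaneous replicate 2, or lung replicate 1 or 2 (adjusted p = 0.0558 to 0.177). After upper quartile scaling Carm1 differed by 0.93 (adjusted p = 0.075), and with the long mRNA covariate by 0.48 (adjusted p = 0.818). Prmt5 lost its call without any dish or any lung array (adjusted p = 0.0524 to 0.115).

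Prmt7 was lower in the lung by 1.27 (interval -2.06 to -0.49) and just missed the threshold (adjusted p = 0.0538), though the groups did not overlap. It passed under 9 of the 20 alternatives, such as quantile normalization (-1.49, adjusted p = 0.0248), and was farther from the threshold with RIN (-0.93, adjusted p = 0.156) or the long mRNA mean (-0.88, adjusted p = 0.635) as a covariate. Prmt1 did not pass (-0.38, interval -0.90 to 0.14, adjusted p = 0.383). The 3 comparisons share groups, so a low subcutaneous value enters both comparisons that hold it.

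Set in order, Prmt7 was highest in the dish, then the lung, then under the skin, and the neighbours dish and lung were not parted by the test. Prmt1 had the same order, again with dish and lung not parted. Carm1 was highest in the lung, and dish and subcutaneous samples were not parted. Prmt5 was highest in the dish, with lung and subcutaneous samples not parted.

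A constant added to an array cancels in the difference between members on that array, though quantile normalization does not, and only the change of such a difference between groups can be read. Carm1 minus Prmt7 was 1.56, 1.25 and 2.44 in the dish, 4.82, 4.94 and 5.44 under the skin and 4.80, 4.73 and 3.34 in the lung. Prmt7 was not above background on subcutaneous replicate 3, so the 5.44 there is no exact difference. All 6 transplanted arrays therefore had a higher Carm1 to Prmt7 ratio than the 3 dish arrays. Prmt1 minus Prmt5 was -0.08, -0.82 and -0.38 in the dish, -0.96, -0.81 and -1.31 under the skin and 0.06, 0.05 and 0.51 in the lung. Lung arrays had the highest ratio of Prmt1 to Prmt5, and dish and subcutaneous arrays overlapped. These ratios were chosen after the values were seen and were not tested.

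The members below background gave 0 calls by limma in any comparison (at an unadjusted p under 0.05, Prmt3 in lung against subcutaneous, Prmt3 and Prmt6 in lung against dish and Prmt6 in subcutaneous against dish). Prmt3, the ribosome-associated type I enzyme, was at 5.72, 4.42 and 5.08 in the dish, 5.67, 5.74 and 4.31 under the skin and 6.29, 5.63 and 7.16 in the lung. Its lung values reached highest on replicate 3 but overlapped with both other groups. Prmt6, a nuclear type I enzyme that methylates histone tails, was at 4.93, 5.35 and 5.27 in the dish, 5.02, 3.76 and 4.53 under the skin and 4.30, 4.58 and 4.0 in the lung. With dim values such as these a difference rests on background. With array weights Prmt3 (1.30, adjusted p = 0.0343) and Prmt6 (-0.88, adjusted p = 0.0377) were called in lung against dish, and Prmt6 also after upper quartile scaling (-1.22, adjusted p = 0.0323).

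Prmt8, the membrane-anchored enzyme of neurons, was the member with the smallest spread, from 3.06 to 3.74 over the 9 arrays. Of 5 neuronal markers, 4 were likewise below background on all arrays. The other, Tubb3, was above it on all 3 lung arrays (9.15, 8.79 and 8.55), on 2 subcutaneous arrays and on 1 dish array. It rose in lung against subcutaneous (1.01, lost under 5 of the 20 alternatives). In lung against dish it also rose (1.53, lost with the long mRNA covariate). Prmt9, the type II enzyme of the splicing factor Sf3b2, ran from 5.31 to 6.51. For Prmt8 and Prmt9 the differences lay between -0.33 and 0.46 in the 3 comparisons, and the levels of these 4 members could not be read at this signal.

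The cofactors of Prmt5 were above background throughout. Coprs, which links Prmt5 to histones, was at 9.42, 9.71 and 9.22 in the dish, 8.66, 7.66 and 8.08 under the skin and 8.72, 8.59 and 8.90 in the lung. It fell under the skin (-1.32 with a standard error of 0.28, adjusted p = 0.00683; with RIN as a covariate 0.0957). The obligate partner Wdr77 differed by -0.78 (adjusted p = 0.0922), the substrate adaptor Clns1a by 0.15 and the competing adaptor Riok1 by -0.23, so 1 of 4 fell and 0 rose. By limma 0 of the 4 were called in lung against subcutaneous (2 at an unadjusted p under 0.05) and 0 in lung against dish (1 at an unadjusted p under 0.05). Shares of all genes called either way there were 15.0% and 6.78%. Among genes above background on all arrays of a group they were 32.8% and 15.6%. The median of the list for subcutaneous against dish was -0.51, against -0.01 over all genes. In that comparison 12.9% of all genes were called either way, and 31.7% of those above background on all arrays of a group.

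The Sm and LSm proteins that Prmt5 methylates had 2 of 4 genes lower under the skin than in the dish, and 3 of 4 rose in lung against subcutaneous, with 0 changes the other way. Snrpb was at 11.51, 11.27 and 11.37 in the dish, 9.95, 8.88 and 9.78 under the skin and 11.41, 11.09 and 11.30 in the lung. The subcutaneous arrays were lowest without overlap: -1.85 against dish (adjusted p = 0.000838) and 1.73 for lung against subcutaneous (adjusted p = 0.00173). Lsm4 differed by -1.17 (adjusted p = 0.00755) and 1.26 (adjusted p = 0.00526), and Snrpd3 rose by 1.19 in lung against subcutaneous (adjusted p = 0.00896). With the long mRNA covariate Snrpd3 (adjusted p = 0.411) and Lsm4 (0.209) lost their calls in lung against subcutaneous, and Snrpd3 also without lung replicate 1. List medians were -0.93 for subcutaneous against dish and 1.23 for lung against subcutaneous, against -0.01 and -0.07 over all genes. In these comparisons 12.9% and 15.0% of all genes were called either way. Among genes above background on all arrays of a group the shares were 31.7% and 32.8%. By limma 0 of 4 were called in lung against dish, and 0 at an unadjusted p under 0.05. The share called there was 6.78% of all genes, and 15.6% of those above background on all arrays of a group.

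Deiminases turn arginine into citrulline, which cannot be methylated as arginine is. The list holds 6 genes, 5 peptidylarginine deiminases and Jmjd6. Of these, 3 rose and 0 fell in subcutaneous against dish, where 12.9% of all genes were called either way. In lung against subcutaneous 0 rose and 2 fell (15.0% of all genes), and in lung against dish 2 rose and 0 fell (6.78%). Among genes above background on all arrays of a group the shares were 31.7%, 32.8% and 15.6%, in that order. Padi4, which acts on histones, was at 9.55, 9.39 and 9.73 in the dish, 12.78, 12.51 and 13.45 under the skin and 11.35, 11.72 and 11.86 in the lung. The 3 groups were apart in all 3 comparisons: 3.35 for subcutaneous against dish (adjusted p = 1.09e-05), 2.09 for lung against dish (adjusted p = 0.00102) and -1.27 for lung against subcutaneous (adjusted p = 0.00863). The last of these lost its call with the long mRNA covariate (adjusted p = 0.225) and without lung replicate 1.

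Padi2 was not well above background in the dish (5.14, 4.45 and 5.10), above it on all 3 subcutaneous arrays (8.25, 8.75 and 9.14) and on 1 of 3 lung arrays (6.95, 5.23 and 7.67). It rose under the skin by 3.82 (adjusted p = 0.000255), at least 1.29 above the dish background, and fell in lung against subcutaneous (-2.10, adjusted p = 0.0123; with the long mRNA covariate 0.492). Padi1 rose against the dish in both transplanted groups (1.09 and 1.14, lost under 5 and 8 alternatives) but was below background on all arrays, as were Padi3 and Padi6. Jmjd6, a dioxygenase reported to act on methylated arginine, did not pass in any comparison.

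Ddah1, which breaks down the asymmetric dimethylarginine set free when methylated proteins are degraded, followed the order seen for Prmt1. It was at 12.64, 12.34 and 12.02 in the dish, 8.64, 9.87 and 9.55 under the skin and 13.06, 12.06 and 11.76 in the lung. The subcutaneous arrays lay far below the others, by -2.98 against dish (adjusted p = 0.00022) and 2.94 for lung against subcutaneous (adjusted p = 0.000401), and both calls held under each of the 20 alternatives. Ddah2 and Agxt2 of the same list were below background on all 9 arrays, and in lung against dish Ddah1 differed by -0.04.

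**Figure D3:**
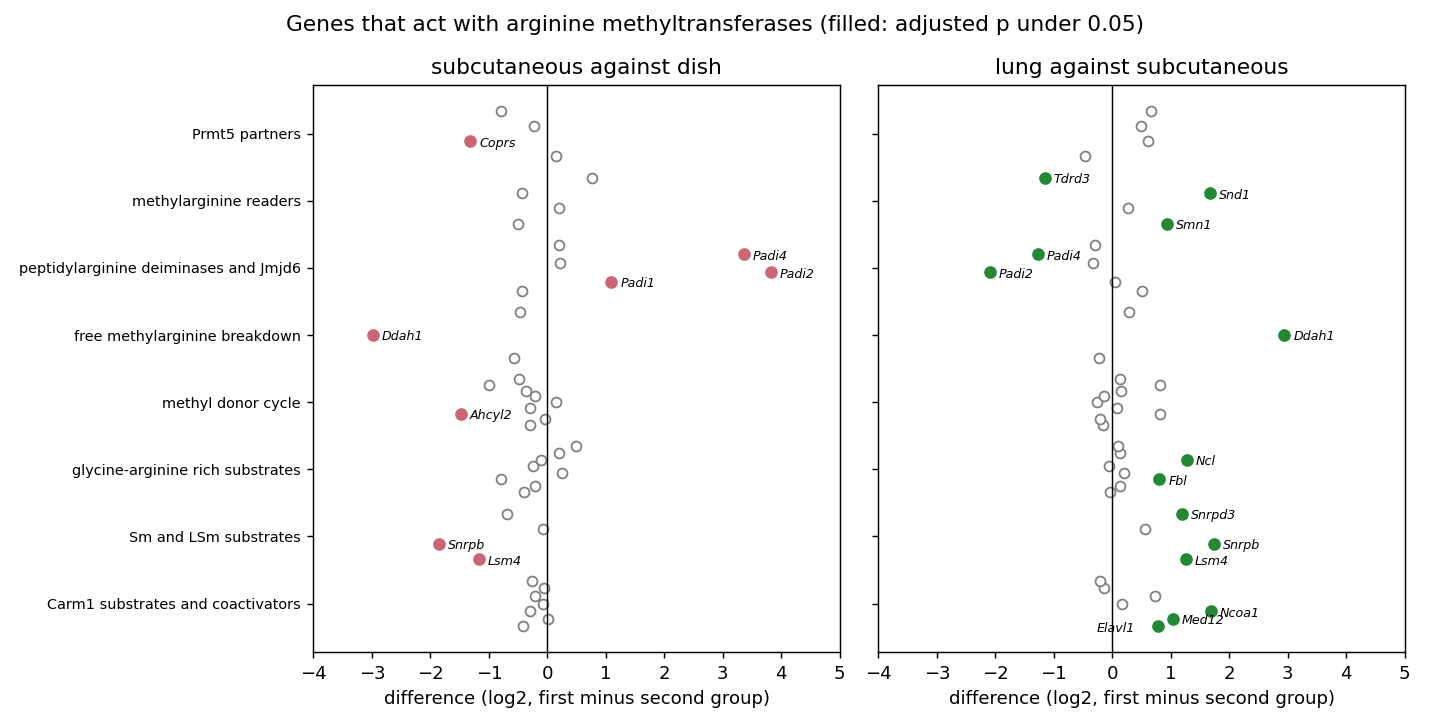
Log2 difference (horizontal axis) of the genes of 8 related lists (rows) for subcutaneous against dish (left) and lung against subcutaneous (right); each dot is 1 gene, and filled, named dots have an adjusted p under 0.05. Ddah1 and Snrpb lie left of 0 on the left and right of 0 on the right (-2.98 and 2.94, -1.85 and 1.73), and Padi4 and Padi2 lie on the opposite sides.

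The methyl donor cycle makes S-adenosylmethionine and clears its product. Of 9 measured genes 1 fell in subcutaneous against dish, where 12.9% of all genes were called either way. It was Ahcyl2 (-1.48), which was below background on all arrays and lost its call under 5 of 19 alternatives. By limma 0 of 9 were called in lung against subcutaneous (2 at an unadjusted p under 0.05) and 0 in lung against dish (0 at an unadjusted p under 0.05). In these 2 lung comparisons 15.0% and 6.78% of all genes were called either way. Mtap, whose loss raises the substance that inhibits Prmt5, was at 15.58 in the dish, 15.22 under the skin and 15.37 in the lung (group means), with differences of -0.36 to 0.15.

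Among the readers of methylarginine, the tudor protein gene Smn1 rose in lung against subcutaneous (0.93, adjusted p = 0.021), Snd1 rose (1.67) while below background on all arrays, and Tdrd3 fell (-1.16, adjusted p = 0.0437). Smn1 lost its call under 6 of the 20 alternatives and Tdrd3 under 11. Either way, 15.0% of all genes were called in lung against subcutaneous, 6.78% in lung against dish and 12.9% in subcutaneous against dish. Among genes above background on all arrays of a group the shares were 32.8%, 15.6% and 31.7%, in that order. In lung against dish Snd1 rose (1.24) and was the 1 call of 4, and in subcutaneous against dish 0 of 4 were called by limma (1 at an unadjusted p under 0.05).

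Of 8 glycine-arginine rich substrates, Ncl rose in lung against subcutaneous (1.28, adjusted p = 0.00923) and against dish (1.17, adjusted p = 0.026, lost under 8 of the 20 alternatives), and Fbl rose in lung against subcutaneous (0.81, adjusted p = 0.0456). Ncl was at 14.54, 14.49 and 13.55 on the lung arrays and at 12.74 to 13.13 on the others. With the long mRNA covariate neither was called (adjusted p = 0.46 for Ncl and 0.765 for Fbl in lung against subcutaneous), and Fbl lost its call under 12 of the 20 alternatives. By limma 0 of 8 were called in subcutaneous against dish (1 at an unadjusted p under 0.05). Of all genes, 15.0% were called either way in lung against subcutaneous, 6.78% in lung against dish and 12.9% in subcutaneous against dish. Among genes above background on all arrays of a group the shares were 32.8%, 15.6% and 31.7%, in that order.

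Carm1 substrates and coactivators gave 3 of 7 genes higher in lung than under the skin and 0 lower: the mediator subunit Med12 (1.04), the nuclear receptor coactivator Ncoa1 (1.68) and the RNA-binding protein Elavl1 (0.78). The list median was 0.73, against -0.07 over all genes. In that comparison 15.0% of all genes were called either way, and 32.8% of those above background on all arrays of a group. Each of the 3 genes lost its call with the long mRNA covariate (adjusted p = 0.193 to 0.676). In all Med12 lost it under 7, Ncoa1 under 5 and Elavl1 under 8 of the 20 alternatives. Leaving out 1 array ended each call in 4 of 9 cases, lung replicate 1 and subcutaneous replicate 2 among them for all 3 genes. Med12 also rose in lung against dish (1.05, adjusted p = 0.044, lost under 11 of the 20 alternatives). This was the 1 call of 7 there, where 6.78% of all genes were called either way. Among genes above background on all arrays of a group the share was 15.6%. By limma 0 of 7 were called in subcutaneous against dish, and 0 at an unadjusted p under 0.05. The share called there was 12.9% of all genes, and 31.7% of those above background on all arrays of a group.

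Of the remaining related genes, Cnot7, a deadenylase subunit tied to Prmt1 through the Btg proteins, rose in lung against subcutaneous (1.49, adjusted p = 0.00102) and fell in subcutaneous against dish (-0.77, adjusted p = 0.0365, lost under 11 of the 20 alternatives). Btg1 and Btg2 were below background on all arrays. Ndufaf7, a mitochondrial arginine methyltransferase outside the family, rose in lung against subcutaneous (0.80, adjusted p = 0.0447) and lost this call under 14 of the 20 alternatives. Sf3b2, the substrate of Prmt9, did not pass (-0.85 for subcutaneous against dish, adjusted p = 0.181).

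The genes most like each called member were taken by Pearson's r over the 9 arrays among 6310 other genes above background on all arrays of a group. The arrays share group and scaling, so r mostly follows the 3 group means and is a description. For Prmt7 they were Wdr18 (0.991), the proteasome subunit Psmb4 (0.990) and Rpl7l1 (0.988), and Wdr18 had group means of 12.72 in the dish, 9.41 under the skin and 11.89 in the lung. For Prmt1 they were Eef1aknmt, a methyltransferase of elongation factor eEF1A (0.988), the mitochondrial serine hydroxymethyltransferase Shmt2 (0.985) and Gga2 (0.982). For Prmt5 they were the mitotic kinase Pbk (0.971), the homeobox gene Dlx2 (0.969) and cytochrome c, Cycs (0.964). For Carm1 they were the tRNA processing enzyme Elac2 (0.983), Tsc2 (0.980) and Cdk16 (0.975), and Cdk16 was highest in the lung at 13.23 against 11.89 in the dish and 11.38 under the skin.

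**Figure D4:**
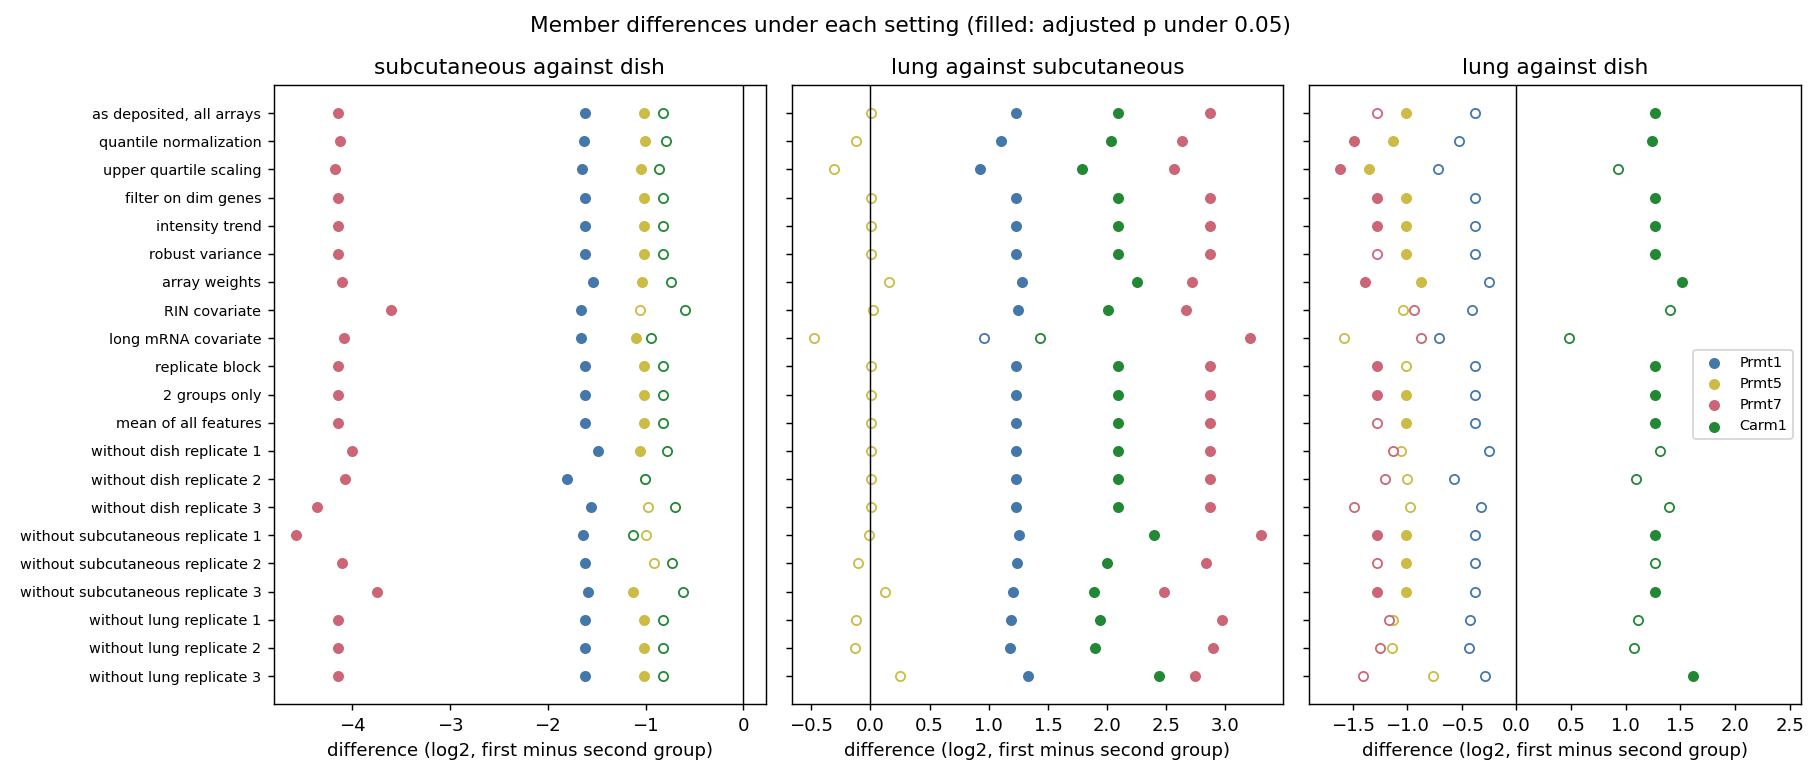
Log2 difference (horizontal axis) of Prmt1, Prmt5, Prmt7 and Carm1 in the 3 comparisons under the deposited values and each of the 20 alternative settings (rows); filled points have an adjusted p under 0.05. Prmt7 stays between -4.57 and -3.60 for subcutaneous against dish, while in lung against dish points of Prmt5, Prmt7 and Carm1 change between filled and open.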

How the data were processed

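RNA of 9 samples was labelled with biotin and hybridized to a 1-colour whole-transcript array, per the labels' protocols. The log2 signals were used as deposited by the authors, in 1 table of 28846 rows. How they were normalized, with which software and on which build, is not given in the sources used here. A platform annotation named 19572 features with 1 symbol each and 0 with several, while 2634 gene features had none; symbols were looked up by gene number in RefSeq (GRCm38.p6) and 0 changed. Taking the feature with the highest mean per gene left 19505 genes. Groups came from the sample titles. limma 3.58.1 in R 4.3.3 (lmFit, eBayes) was fitted to all 9 arrays with 3 group means (6 residual and 7.08 prior degrees of freedom). P-values are two-sided and were adjusted over all genes by Benjamini-Hochberg. The fit was tested on simulated data. There was no filter on level, and the number of arrays limits the precision. Background was the 90th percentile of the 5222 negative controls, and a gene under it on each array of a group counts as dim in that group; "at least" sets the brighter mean against that percentile on the dimmer arrays. Members and lists, including a list of 42 measured long mRNAs, were chosen with earlier results of these data known. The rule named all members, genes of a list called in any comparison, and the 3 genes most like each called member by Pearson's r. Wdr77, Clns1a, Riok1, Btg1, Btg2, Padi3, Padi6, Jmjd6, Ddah2, Agxt2, Mtap and Sf3b2 fall outside it and were named after their values were seen. The 20 alternatives were 11 settings and leaving out each of 9 arrays.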

Additional observations from a re-analysis of the deposited data

How the results depend on the processing

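In lung against subcutaneous, 3 members were called under every alternative but the long mRNA covariate (1 member, Prmt7; 856 genes in all against 2927). In lung against dish, where 2 members and 1322 genes were called, the counts were 5 members and 3039 genes with array weights, 0 and 856 with RIN as a covariate, 0 and 217 with the long mRNA covariate, and 3 and 2352 after upper quartile scaling. In subcutaneous against dish, RIN as a covariate gave 2 members and 1280 genes against 3 and 2513. Leaving out 1 array gave 3 to 3 members and 1476 to 2928 genes in lung against subcutaneous (1476 without lung replicate 1, 1938 without lung replicate 2), 0 to 3 members and 514 to 1442 genes in lung against dish (514 and 667 without dish replicates 2 and 3, 591 and 765 without lung replicates 1 and 2), and 2 to 3 members and 1639 to 2738 genes in subcutaneous against dish (1639 without dish replicate 2). The cause of these changes was not tested. No called difference of a member changed sign under these alternatives. Deviations of same-numbered arrays from their group means correlated at -0.06 to 0.09 over all genes. Most genes were dim in both groups, so these values cannot settle whether the numbers pair the samples. With the replicate number as a block, 3, 2 and 3 members were called. In lung against dish Prmt5 then lost its call (limma, adjusted p = 0.055) and Prmt7 gained one (adjusted p = 0.0492). Signal over background limits Prmt3, Prmt6, Prmt8 and Prmt9.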
